A study of Mus musculus with 7 samples.

Results

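The genes described here are 37 members of the machinery that moves proteins into the endoplasmic reticulum (ER), folds them there, and reports when folding fails. They were chosen by gene symbol and matched to Ensembl gene identifiers in the count table, where all 37 were found among 27138 features. All 37 also had enough counts to be tested, with 16910 features tested in all. Polyadenylated RNA came from the dissected pancreas of mouse embryos at E15.5. The 4 WT embryos were mLINC00673fl/fl without Cre, in which the floxed gene is 2610035D17Rik, a long non-coding RNA gene and the mouse counterpart of LINC00673. The 3 cKO embryos carried the same floxed alleles and Pdx1Cre, which recombines in the pancreatic epithelium and not in the mesenchyme, vessels, nerves and blood cells of the organ. Each library came from an independent animal. WT embryos had no Cre, so the deletion cannot be told apart from Cre itself or from chromosomes inherited with it.

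Library totals ranged from 14883918 to 17767373 counts. The deleted gene, 2610035D17Rik (ENSMUSG00000087259), had 125 to 168 counts in the WT libraries and 34 to 57 in the cKO libraries, which do not overlap. Its log2 fold change was −1.76 (SE 0.215; edgeR quasi-likelihood test, adjusted p = 0.0902). Levels are given as CPM, the counts of a gene relative to its library's total after scaling by the TMM method. The summed level of 10 liver genes was far higher in 2 libraries, at 1947 CPM (cKO replicate 1) and 1255 CPM (WT replicate 4), than in the other 5, at 306 to 420 CPM. The column of WT replicate 4 also carries a different number after the genotype in the file header than the other 6 columns, whose meaning the labels do not give.

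Secretory cells pass every exported protein through the ER. The Sec61 channel takes the nascent chain in, chaperones such as BiP (the product of Hspa5) hold it, and disulfide isomerases form its bonds. Chains that do not fold are drawn back out and destroyed, a route called ER-associated degradation. When unfolded chains build up, the sensors ATF6, IRE1 (Ern1) and PERK (Eif2ak3) start the unfolded protein response, which raises the folding machinery and, through PERK, the transcription factors ATF4 and CHOP (Ddit3). Acinar cells of the pancreas, which make digestive zymogens, are among the heaviest users of this machinery, and at E15.5 they are beginning to fill with zymogen.

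Some of these genes carry in their promoters a sequence known from the unfolded protein response. The ER stress response element (ERSE), bound by ATF6 and XBP1 together with NF-Y, is CCAAT and CCACG with 9 bases between them. It was searched on both strands, from 250 bases before to 50 bases after the annotated start, in RefSeq promoters of GRCm38.p6. The set held no entry for Hyou1, Manf, Ero1lb, Atf6, Sec61a1 and Ssr2. Of the 31 members with a promoter in it, 8 held an ERSE (Hspa5, Hsp90b1, Calr, Canx, Creld2, Dnajc3, Pdia6 and Derl3), or 25.8%. Of all 32851 promoters 39 held one, or 0.119%. A member was counted once if any of its promoters matched, whereas the share of all counts each promoter singly. The percentages therefore differ in unit. The variant ERSE-II, ATTGG and CCACG with 1 base between them, was in Herpud1 and Dnajb11 and in 12 of all promoters (0.0365%). Both elements are known from the unfolded protein response, and the members were chosen for their part in ER folding and stress. A higher share among the members was therefore to be anticipated and is not an independent result. Genome positions below are on GRCm38.p6, each sequence reads 5′ to 3′ on the strand of its gene, every stretch lies before the annotated start, and capitals mark the ERSE or ERSE-II. The first 5 are examples, chosen after their values were seen, from the 8 members that held either element and were highest in the 3 libraries highest in the zymogen transcript Ctrb1. The others of these 8 were Calr, Pdia6 and Dnajb11. Canx is shown as 1 of the 2 members, with Dnajc3, that held an ERSE and had another order of libraries.
Hspa5 (chr2:34772019-34772049, plus strand): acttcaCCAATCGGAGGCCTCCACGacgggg
Hsp90b1 (chr10:86705527-86705662, minus strand): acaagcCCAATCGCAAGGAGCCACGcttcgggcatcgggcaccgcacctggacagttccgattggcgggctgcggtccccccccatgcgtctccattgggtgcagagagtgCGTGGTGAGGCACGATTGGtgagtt
Creld2 (chr15:88819514-88819544, plus strand): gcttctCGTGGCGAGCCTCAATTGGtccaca
Derl3 (chr10:75893236-75893266, plus strand): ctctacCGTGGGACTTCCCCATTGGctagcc
Herpud1 (chr8:94386371-94386393, plus strand): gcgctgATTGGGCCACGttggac
Canx (chr11:50325794-50325824, minus strand): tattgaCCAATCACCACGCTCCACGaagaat

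Hsp90b1 held the element once in each orientation, 212 to 194 and 107 to 89 bases before its start. In Creld2 and Derl3 it lay on the opposite strand of the gene, so the stretch reads as its reverse complement. A further pair of motifs was searched on both strands. The C/EBP-ATF element TGATGNAAN, bound by ATF4 with its partners, was in 6 members (Asns, Atf3, Chac1, Trib3, Herpud1 and Txndc5), 19.4% of those matched, and in 3.95% of all promoters. The UPR element TGACGTGG was in Txndc5 alone of the members and in 0.676% of all promoters. The CCACG of ERSE and ERSE-II, read as its reverse complement CGTGG, is also part of the UPR element. For these motifs too, members were counted by gene and all promoters singly. A match describes letters in a window and shows no binding.

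**Figure D1:**
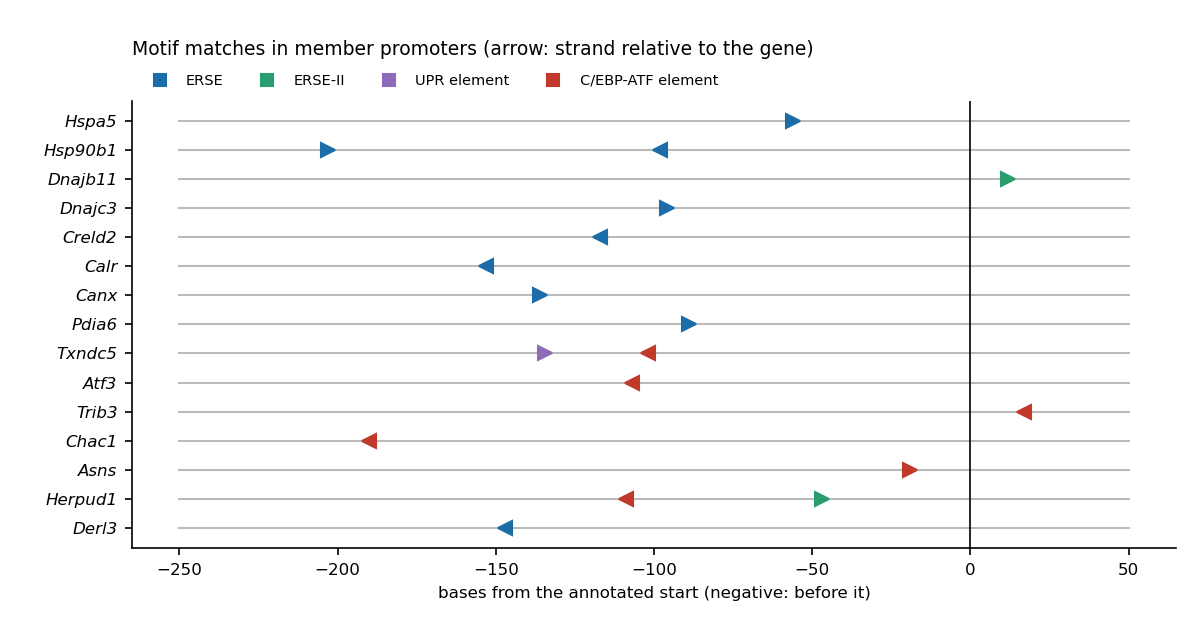
Matches to 4 motifs in the promoters of the 15 members that held any. The x axis gives bases from the annotated start and each arrowhead the strand of the match relative to the gene. The ERSE matches lie before the start in all 8 genes that hold one, between 212 and 47 bases from it, and the C/EBP-ATF matches sit mainly in stress-only genes.

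The highest folding genes stood far above most of the stress-only genes in the WT pancreas. Per kilobase of annotated exon (GENCODE M21), the WT level was 732 ± 111 CPM per kb for P4hb, the founding disulfide isomerase (SD, n = 4). It was 459 ± 55.5 for Calr, the calcium-binding lectin chaperone calreticulin, 379 ± 30.8 for Pdia3, and 378 ± 54.0 for Hspa5. Pdia3 and Hspa5 differed by less than their spread. The lowest members on the same scale were Chac1 at 1.15 ± 1.03, Pdia2 at 1.17 ± 0.816, Trib3 at 1.29 ± 0.607, Atf3 at 2.25 ± 0.495 and Ddit3 at 4.41 ± 0.529 CPM per kb. These 5 had means under 10 CPM in both groups, and 4 of them belong to the 6 stress-only genes. The other stress-only genes, Asns (99.2 ± 14.8 CPM per kb) and Atf4 (81.0 ± 8.63), had levels among those of the folding genes. Ctrb1, a chymotrypsinogen and the reference for zymogen load here, reached 24714 ± 10518 CPM per kb in WT. All members together took 1.43% to 1.71% of the counts of a library.

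**Figure D2:**
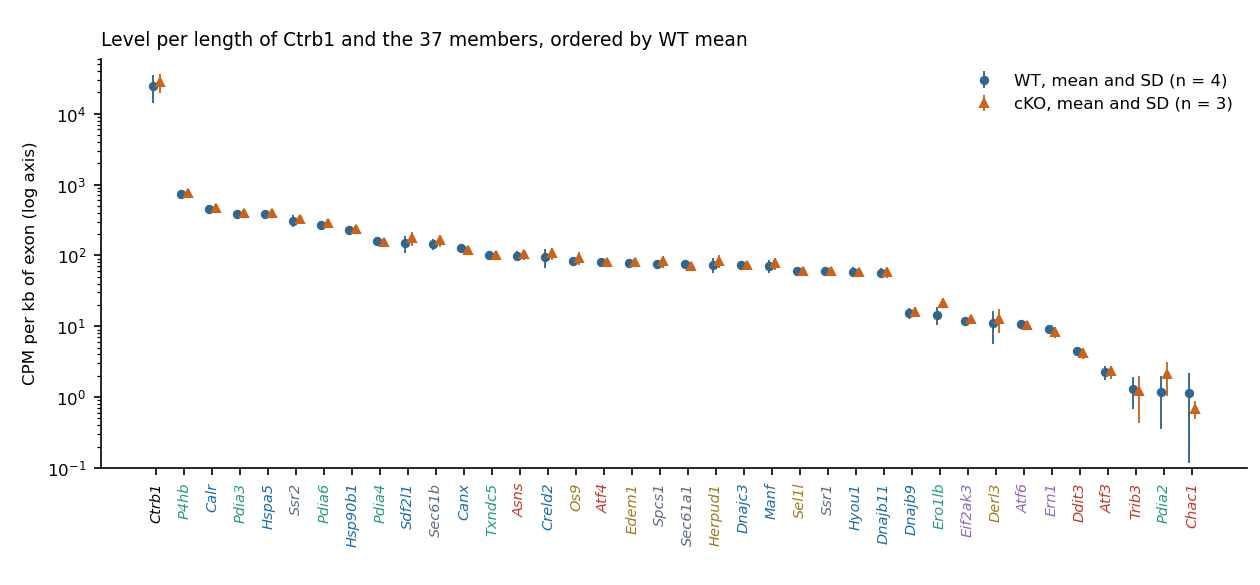
Level per kilobase of exon of Ctrb1 and the 37 members, as mean and SD of WT (n = 4, circles) and cKO (n = 3, triangles), on a log axis. Gene names are coloured by role as in the plot of fitted differences, with Ctrb1 in black. Members run from P4hb at 732 CPM per kb to Chac1 at 1.15 CPM per kb in WT, with the stress sensors and most stress-only genes at the low end.

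Between cKO and WT none of the 37 members passed the threshold of the test, and most were close to even. By edgeR, with p-values adjusted over all features, 0 of 37 passed the threshold of 0.05 (every adjusted p was 1.00), where 0.00591% of all features passed. DESeq2 called 0 members against 0.0738% of features with an adjusted p, and limma-voom 0 against 0.00591%. At an unadjusted p under 0.05 there was 1 member, Ero1lb, where 1.38% of all features had such a p. In 0 of 37 members did the 2 groups fail to overlap, a pattern seen in 2.72% of all features. Beside such low shares, a count of 0 of 37 does not set the members apart from other genes. The deleted gene itself did not pass the edgeR threshold. The fitted values of 25 members were above 0, with a median log2 fold change of 0.05, against 46% of all features and a median of −0.01. In such bulk libraries, fewer cells of a type and less RNA per cell cannot be told apart.

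The 95% interval of the fold change lay within 1.5-fold in either direction for 29 of the 37 members, and for 10552 of all 16910 features. It reached beyond 1.5-fold for Sdf2l1, Creld2, Herpud1, Ero1lb, Derl3, Pdia2, Trib3 and Chac1, and beyond 2-fold for the last 5 of these. Which way the members leaned depended on single libraries. Without WT replicate 4, 33 were above 0 (median 0.12). Without cKO replicate 1, 15 were (median −0.01), and without WT replicate 3, 17 (median −0.01). Without both WT replicate 4 and cKO replicate 1, the libraries high in liver genes, 30 were above 0 (median 0.08) and 0 passed.

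**Figure D3:**
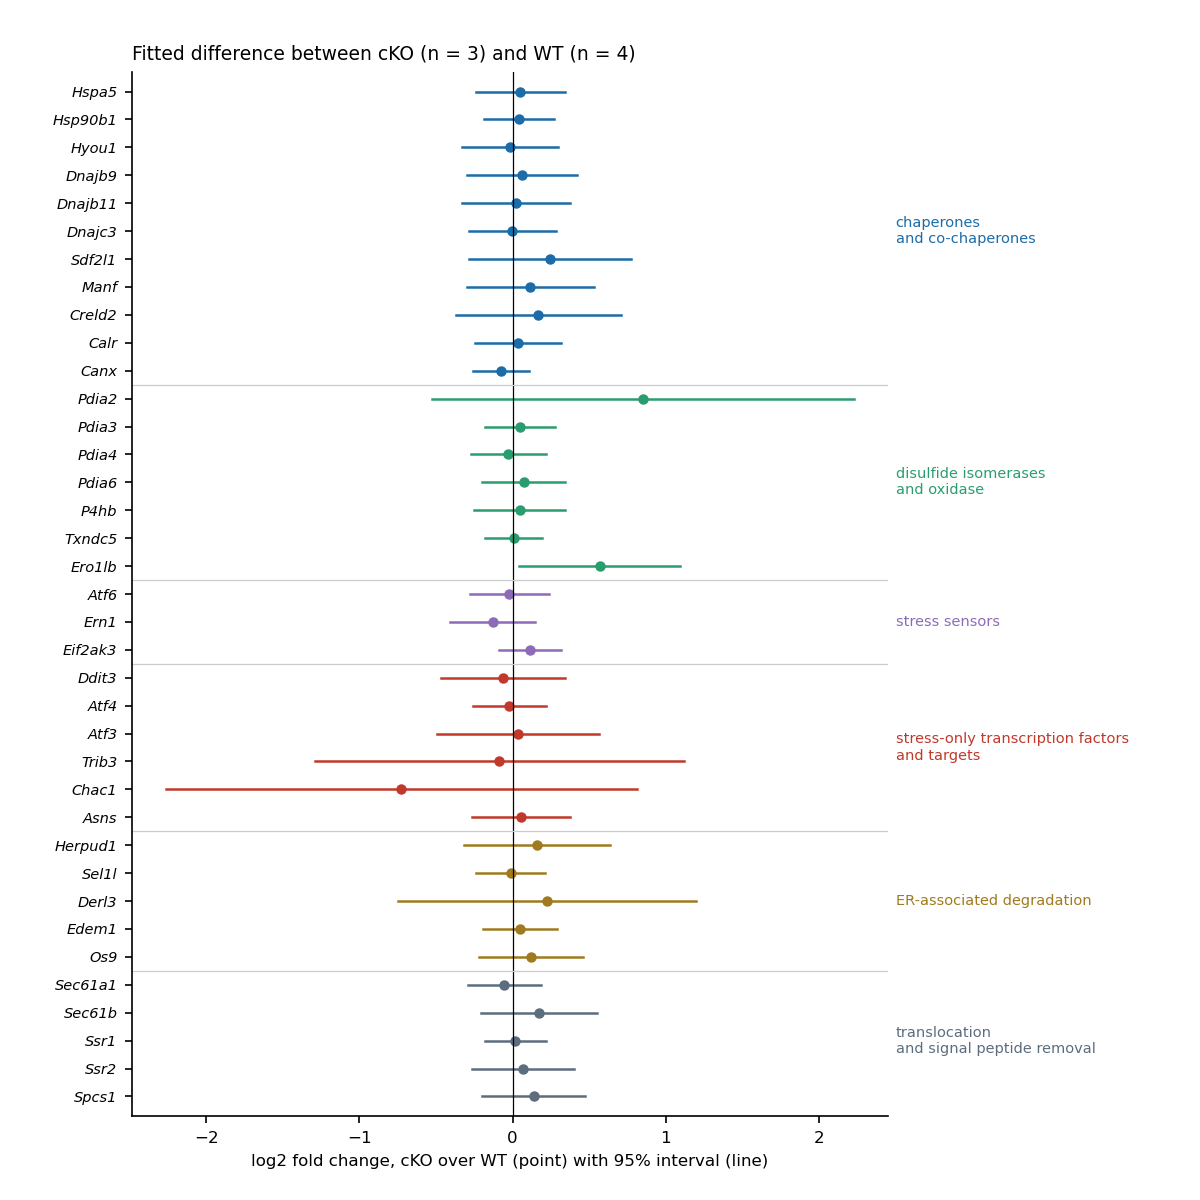
Fitted log2 fold change of cKO over WT for each member (point) with its 95% interval (line), grouped by role. Only the interval of Ero1lb leaves out 0, and it did not pass after adjustment; the widest intervals belong to Pdia2, Chac1, Trib3 and Derl3.

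Among the 11 chaperones and co-chaperones, 8 were above 0 in the fit (median log2 fold change 0.04) and 0 passed. Hspa5, the Hsp70 of the ER lumen, had 1486, 1553, 1418 and 1929 CPM in WT replicates 1 to 4 and 1804, 1716 and 1444 CPM in cKO replicates 1 to 3. WT replicate 4 was the highest library and cKO replicate 3 lay among WT replicates 1 to 3, so the groups overlapped across nearly their whole range (fitted log2 fold change 0.05, SE 0.128, 95% interval −0.24 to 0.34). Hsp90b1, the ER Hsp90 known as GRP94, had 948, 913, 829 and 1016 CPM in WT and 1041, 960 and 864 CPM in cKO. Its log2 fold change was 0.04 (SE 0.101, 95% interval −0.18 to 0.27).

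Sdf2l1, which works with BiP and its J-domain partner Dnajb11, had the smallest unadjusted p of the chaperones (0.318 in the edgeR fit). It had 130, 159, 140 and 225 CPM in WT and 226, 213 and 142 CPM in cKO. WT replicate 4 was close to the highest cKO library, and cKO replicate 3 fell within WT replicates 1 to 3 (log2 fold change 0.24, 95% interval −0.29 to 0.77). Canx, the membrane-bound lectin chaperone calnexin, was steady, with 626, 597, 549 and 599 CPM in WT and 569, 585 and 532 CPM in cKO (fitted log2 fold change −0.08, SE 0.0812). Creld2 and Manf, small secreted ER stress proteins, spanned 107 to 190 and 219 to 330 CPM in WT, and 117 to 174 and 215 to 321 CPM in cKO. For the BiP cofactors Hyou1, Dnajb9, Dnajb11 and Dnajc3 and for Calr, log2 fold changes lay between −0.01 and 0.06.

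Of the 7 disulfide isomerases and oxidase, 6 were above 0 in the fit (median 0.05) and 0 passed. Ero1lb, the oxidase that recharges disulfide isomerases and is most abundant in insulin-producing cells, had the smallest unadjusted p of all members. Of all features, 1.38% had an unadjusted p under 0.05, and the fitted changes of Pdia2 (0.85) and Chac1 (−0.72) were larger. Ero1lb had 126, 74.6, 70.6 and 113 CPM in WT and 160, 151 and 117 CPM in cKO. WT replicate 1 exceeded cKO replicate 3, so the groups overlapped by 1 library on each side. The log2 fold change was 0.57 (SE 0.226, 95% interval 0.04 to 1.10; unadjusted p = 0.0371, adjusted p = 1.00 with edgeR). It stayed between 0.45 and 0.73 when each library was left out in turn.

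Ins2 and Iapp, from the list of 8 endocrine genes, ordered the libraries differently from Ero1lb. Ins2, a preproinsulin gene, had 461, 462, 430 and 780 CPM in WT and 766, 665 and 533 CPM in cKO. Iapp, the islet amyloid gene, had 95.8, 89.4, 85.4 and 119 CPM in WT and 118, 140 and 103 CPM in cKO. WT replicate 4 was highest in Ins2 but ranked below WT replicate 1 in Ero1lb. Chga, of the same list, had 214, 138, 188 and 139 CPM in WT and 222, 135 and 125 CPM in cKO. In Chga, as in Ero1lb, WT replicate 4 ranked below WT replicate 1 and cKO replicate 1 was highest. In Ins1, Gcg, Pcsk1, Pcsk2 and G6pc2, WT replicate 4 ranked above WT replicate 1. Of 8 endocrine genes 7 were above 0 in the fit (median 0.20, summed level 1501 to 2087 CPM in WT and 1794 to 2180 CPM in cKO), and their part in the Ero1lb difference was not tested.

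Pdia2, the disulfide isomerase most restricted to the adult pancreas, was near the lower end of detection, with 43, 9, 24 and 54 counts in WT and 95, 55 and 36 in cKO. It had 2.32, 0.537, 1.39 and 3.82 CPM in WT and 5.62, 3.26 and 1.99 CPM in cKO, and a wide interval (log2 fold change 0.85, 95% interval −0.52 to 2.23). P4hb, at 1879 to 2564 CPM in WT and 1892 to 2361 CPM in cKO, gave a log2 fold change of 0.05. Pdia3, Pdia4, Pdia6 and Txndc5 gave 0.05, −0.03, 0.07 and 0.01. Txndc5 had the smallest spread of all members, its highest library exceeding its lowest 1.16-fold.

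The RNA of the 3 sensors was low and even, which does not show whether their proteins were active. Eif2ak3, the PERK kinase, had 67.3, 75.6, 67.2 and 71.9 CPM in WT and 78.0, 82.4 and 68.2 CPM in cKO (fitted log2 fold change 0.11, SE 0.0888, 95% interval −0.09 to 0.31). Ern1, the IRE1 kinase and nuclease, had 76.8, 78.6, 73.1 and 69.6 CPM in WT and 54.0, 73.4 and 76.9 CPM in cKO. Only cKO replicate 1 fell outside the WT range for Ern1 (fitted log2 fold change −0.13, SE 0.122). Atf6, the membrane-bound transcription factor, was also lowest in cKO replicate 1, at 80.4 CPM against 87.2 to 105 CPM in the other 6 libraries (log2 fold change −0.02).

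The 6 stress-only genes gave no shared direction, with 2 above 0 (median −0.04) and 0 past the threshold. Here too, RNA counts do not show the level or activity of the proteins. Atf4, the transcription factor of the integrated stress response, had 186, 175, 182 and 221 CPM in WT and 209, 182 and 174 CPM in cKO (fitted log2 fold change −0.02, SE 0.106, 95% interval −0.26 to 0.22). Ddit3, which encodes the pro-apoptotic factor CHOP, had 7.57, 6.26, 8.16 and 8.20 CPM in WT and 8.69, 6.63 and 6.35 CPM in cKO. The groups overlapped, and the log2 fold change of −0.06 (95% interval −0.47 to 0.34) was well inside the spread. Asns, asparagine synthetase and an ATF4 target, had 271, 256, 231 and 327 CPM in WT and 329, 279 and 238 CPM in cKO (log2 fold change 0.06).

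Chac1, a glutathione-degrading enzyme downstream of ATF4, had 28, 7, 22 and 61 counts in WT and 25, 15 and 18 in cKO. WT replicate 4 alone held the highest count, and the 95% interval of the log2 fold change ran from −2.26 to 0.81 around −0.72. Trib3, a pseudokinase that responds to CHOP, had 38, 32, 41 and 66 counts in WT and 70, 47 and 15 in cKO. Atf3, an early stress transcription factor, ranged from 3.67 to 6.25 and from 4.26 to 6.15 CPM. The 95% interval of the fold change ran from 0.209 to 1.75 for Chac1 and from 0.409 to 2.18 for Trib3.

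Of the 5 genes of ER-associated degradation, 4 were above 0 in the fit (median 0.12) and 0 passed. Herpud1, which assembles the degradation complex, had 165, 148, 144 and 235 CPM in WT and 227, 206 and 148 CPM in cKO (fitted log2 fold change 0.16, SE 0.207, 95% interval −0.32 to 0.64). Os9, a lectin that hands over misfolded glycoproteins, had 225, 197, 207 and 261 CPM in WT and 287, 249 and 189 CPM in cKO (fitted log2 fold change 0.12, SE 0.150). In both genes WT replicate 4, cKO replicate 1 and cKO replicate 2 were the 3 highest libraries. Derl3, a derlin enriched in secretory cells, spanned 14.1 to 37.5 CPM in WT and 15.1 to 34.6 CPM in cKO, a 2.66-fold range over all 7 libraries. Edem1 gave a log2 fold change of 0.05 and Sel1l, the adaptor of the ubiquitin ligase, one of −0.01.

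Among the 5 genes of translocation and signal peptide removal, 4 were above 0 (median 0.07) and 0 passed. Sec61b, the beta subunit of the channel, had 154, 185, 167 and 228 CPM in WT and 237, 222 and 161 CPM in cKO (fitted log2 fold change 0.17, SE 0.167). Spcs1, a subunit of the signal peptidase, had 103, 119, 103 and 138 CPM in WT and 156, 115 and 112 CPM in cKO (fitted log2 fold change 0.14, SE 0.148). The groups overlapped for both. Sec61a1, the channel's pore subunit, gave a log2 fold change of −0.05, and the translocon-associated proteins Ssr1 and Ssr2 gave 0.02 and 0.07.

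For 13 of the 18 folding genes, and for their sum, the 3 highest libraries were the 3 highest in Ctrb1, from both genotypes. The same was true of 8.4% of all tested features. The other 5 folding genes were Canx, Dnajc3, Pdia4, Txndc5 and Ero1lb. Ctrb1 had 15791, 17915, 17610 and 35480 CPM in WT replicates 1 to 4 and 31562, 25530 and 16758 CPM in cKO replicates 1 to 3. The summed level of the 18 chaperones, isomerases and oxidase was 10578, 10922, 10214 and 13202 CPM in WT, and 12522, 12069 and 10175 CPM in cKO. The mean of this sum was 11229 ± 1347 CPM over the 4 WT libraries and 11589 ± 1245 CPM over the 3 cKO libraries (± SD), a difference smaller than either SD. WT replicate 4, cKO replicate 1 and cKO replicate 2 were the 3 highest libraries for both. From its lowest to its highest library Ctrb1 spanned 2.25-fold and the folding sum 1.30-fold.

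The ratio of the folding sum to Ctrb1 was therefore lowest where Ctrb1 was highest. It was 0.670, 0.610, 0.580 and 0.372 in WT (0.558 ± 0.129, SD, n = 4) and 0.397, 0.473 and 0.607 in cKO (0.492 ± 0.107, SD, n = 3). The cKO values lay within the range of the WT values. The summed level of the stress-only genes was 473, 445, 431 and 568 CPM in WT and 558, 476 and 424 CPM in cKO. Because Ctrb1 split the libraries into 4 between 15791 and 17915 CPM and 3 at 25530 CPM or more, no pooled correlation across libraries was computed.

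**Figure D4:**
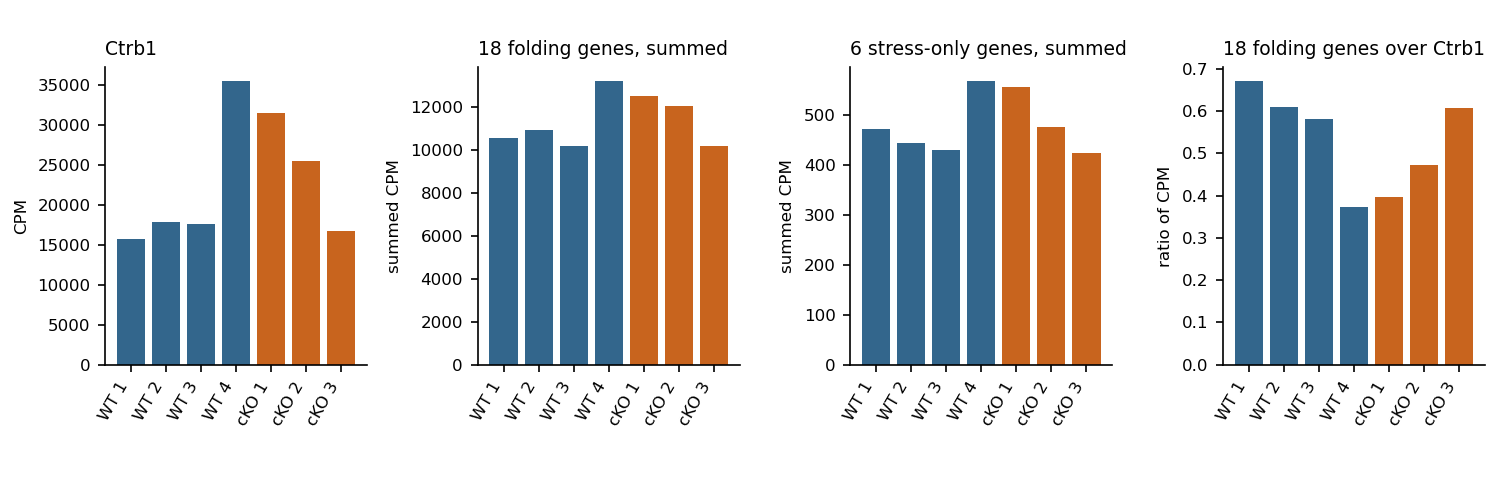
Ctrb1, the summed level of the 18 folding genes, the summed level of the 6 stress-only genes and the ratio of the folding sum to Ctrb1 in each library (blue WT, orange cKO; bars start at 0). Ctrb1 runs from 15791 to 35480 CPM while the folding sum runs from 10175 to 13202 CPM, so the ratio falls from 0.670 in WT replicate 1 to 0.372 in WT replicate 4.

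By rank, 21 of 37 members had the same 3 highest libraries as Ctrb1, where 8.4% of all tested features did, and 10.2% of the 10702 features above 10 CPM. The pattern was uneven over the roles. It held for 9 of 11 chaperones (all but Canx and Dnajc3) and for P4hb, Pdia2, Pdia3 and Pdia6 among the 7 isomerases and oxidase. It also held for 4 of 5 degradation genes (all but Sel1l) and for Sec61b and Ssr2 among the 5 translocation genes. It held for 0 of 3 sensors and, of the 6 stress-only genes, for Asns and Trib3. Of the 10 members with an ERSE or ERSE-II in the promoter 8 showed it, and of the 21 with a matched promoter and neither element 10 did. No sensor or stress-only gene held either element, so these promoter sets also differed in role. These counts describe 7 libraries, and the difference between roles or promoters was not tested.

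Of the 9 acinar markers other than Ctrb1, 8 had the same 3 highest libraries as it, with a summed level of 10222, 10389, 9942 and 19213 CPM in WT and 14366, 12404 and 9674 CPM in cKO. The same was true of 4 of 6 macrophage markers, 3 of 8 endocrine markers and 0 of 7 mesenchyme, 0 of 10 liver and 0 of 6 neuron markers. Liver cells also make secreted proteins, and the summed liver level was high in WT replicate 4 and cKO replicate 1. In cKO replicate 2 it lay within the 306 to 420 CPM of the 4 libraries low in Ctrb1. The part of these cell types in the folding levels was not tested. Of 4 plasma cell genes, Jchain, Mzb1 and Igkc were at 0 to 1.06 CPM, and Ighm, the one with enough counts to be tested, was at 3.76 to 6.11 CPM in WT and 5.45 to 7.68 CPM in cKO (log2 fold change 0.34).

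With the log2 CPM of Ctrb1 as a covariate, 12 of 37 members were above 0 (median −0.02). With the liver genes as a covariate, 19 were (median 0.00). In both fits 0 members passed.

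**Figure D5:**
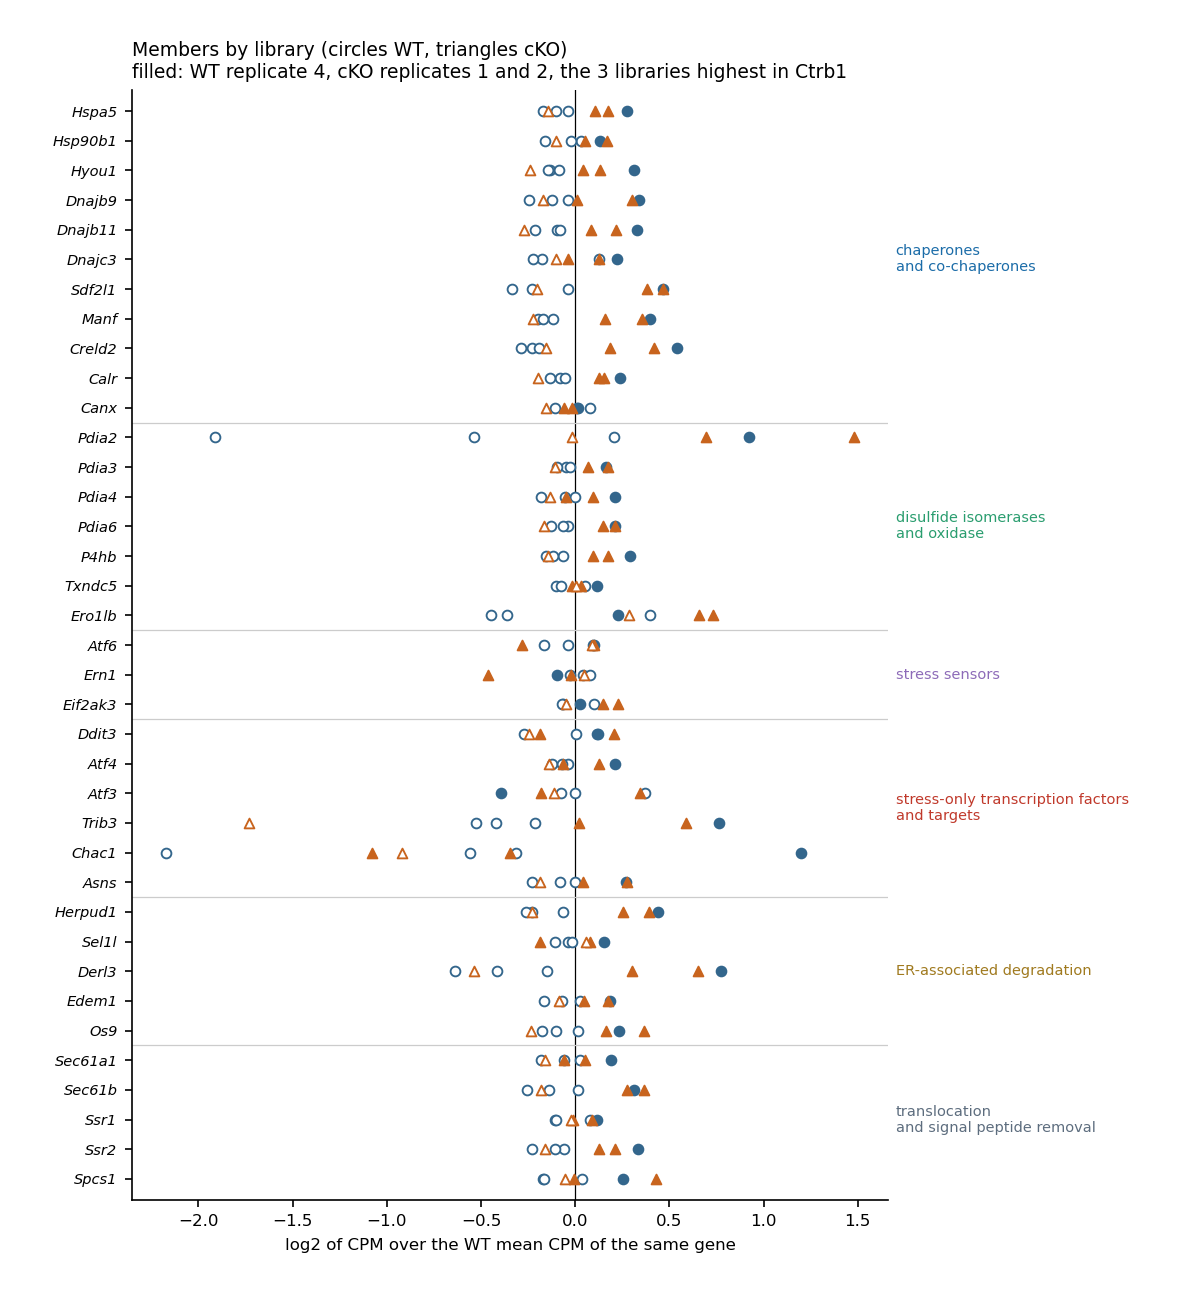
Each member in each library as log2 of its CPM over its own WT mean (circles WT, triangles cKO). Filled symbols are WT replicate 4, cKO replicate 1 and cKO replicate 2, the 3 libraries highest in Ctrb1. For 21 of 37 members all filled symbols lie to the right of all open ones, and for the 3 sensors they do not.

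Members differed in how far they spread over the 7 libraries. The highest library was less than 1.5-fold above the lowest for 23 of 37, with Txndc5 (1.16-fold), Ssr1 (1.17-fold) and Canx (1.18-fold) the narrowest. It was more than 2-fold above for Derl3 (2.66-fold), Ero1lb (2.26-fold) and the 3 sparsely counted genes Pdia2, Chac1 and Trib3. The highest library was WT replicate 4 for 22 members, cKO replicate 1 for 10 and cKO replicate 2 for 2. No share over all features stands beside these counts, so they are not read as a trait of the members.

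The rest of the pathway also held no gene past the threshold. Of 89 further genes listed by role (transcription factors, cofactors, oxidoreductases, glycosylation, translocation, degradation and the integrated stress response), 88 were tested. In either direction 0 of the 88 passed, where 0.00591% of all features did, so the count does not set the list apart. Of the 88, 55 were above 0 (median 0.02), against 46% of all features (median −0.01). Xbp1, the transcription factor that IRE1 activates by splicing, had 527, 571, 543 and 685 CPM in WT and 617, 672 and 547 CPM in cKO (fitted log2 fold change 0.08, SE 0.115). Gene counts do not separate its spliced from its unspliced form. The smallest unadjusted p of the list belonged to Agr2, a disulfide isomerase of mucus-secreting cells, with 2.54, 2.44, 1.85 and 5.58 CPM in WT and 8.39, 5.45 and 3.09 CPM in cKO (log2 fold change 0.87, unadjusted p = 0.0835 with edgeR).

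Next came Ero1l, the widely expressed ER oxidase that responds to hypoxia, at 47.2 to 50.5 CPM in WT and 41.4 to 48.2 CPM in cKO (log2 fold change −0.14, against 0.57 for its paralog Ero1lb). Ddit4, an inhibitor of mTOR signalling induced by stress, had 120 to 151 CPM in WT and 140 to 166 CPM in cKO (log2 fold change 0.16). Groups overlapped for all 3. By rank, 41 of the 88 had the same 3 highest libraries as Ctrb1, where 8.4% of all tested features did, and 10.2% of those above 10 CPM.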

How the data were processed

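The authors deposited raw read counts per feature, whole numbers that are not normalized, for 7 libraries of polyadenylated RNA. The submitters' processing notes list HISAT2, StringTie, featureCounts and the build mm39, with no settings. The kit keeps no strand, per the labels' protocols, so overlapping genes on opposite strands cannot be told apart. Features with a running number in place of a gene identifier took 0.206% of the counts.

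Counts were filtered with filterByExpr, scaled by TMM (factors 0.952 to 1.04) and tested with edgeR 4.0.16 in R 4.3.3 (robust glmQLFit and glmQLFTest, group as the only term), with Benjamini-Hochberg adjustment over 16910 features and a threshold of 0.05. SEs and 95% intervals came from the coefficient and F statistic. DESeq2 1.42.0 and limma 3.58.1 (voom), other scalings and filters, left-out libraries, a replicate block and 2 covariates were alternatives. The procedure was tested on simulated data. Every pair of libraries differed beyond counting noise (chi-square over its degrees of freedom between 11.1 and 50.8).

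Symbols, exon lengths and promoters come from GRCm38 annotations, another build than mm39. Full values are given for fixed genes and the 2 members per role, and 3 genes of the wider list, with the smallest p. Ins2, Iapp, Chga and other spread values were chosen after being seen. The members and lists were chosen with earlier results of these data known.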

Additional observations from a re-analysis of the deposited data

Results flagged for a closer look

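In 6 of 48 quantities examined in the 4 WT libraries, WT replicate 4 lay so far from the other 3 that its gap to the nearest of them, as a share of the whole range, exceeded Dixon's 95% critical value for 4 samples. Chance alone does this in about 1 in 20 groups, and the quantities are not independent of each other. Ctrb1 was at 35480 CPM in WT replicate 4 against 15791 to 17915 CPM in the other WT libraries. The chaperones Hyou1, Manf and Creld2 were at 526 CPM (others 383 to 398), 330 CPM (219 to 231) and 190 CPM (107 to 114). The summed level of the degradation genes was 1678 CPM (1338 to 1375), and Trib3, which is sparsely counted, was at 4.66 CPM (1.91 to 2.37). This library also stood apart in liver genes, and what sets it apart was not tested.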

How the results depend on the processing

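The count of 0 members and 0 genes of the wider list past the threshold held in all 18 alternative fits. The smallest adjusted p of any member was 0.313, for Ero1lb with the replicate number as a block (log2 fold change 0.69), and 0.972 or more in the other 17. The number of features called over the whole table, 1 in the edgeR fit (a feature with a running number and no gene identifier, singled out after its values were seen), was 4 with no filter and 13 with DESeq2. It was 0 with DESeq2 size factors, library totals, a filter at 1 CPM, estimation that is not robust, or Ctrb1 as a covariate, and 0 to 3 when each library was left out. With the replicate block it was 13. WT replicate 4 has no cKO library of its number, so the block fit draws no group difference from it. Same-numbered WT and cKO libraries deviated together with correlations of 0.284, 0.419 and 0.0597, and 4 of 6 libraries correlated best with their own number. These values do not settle whether the animals were paired. The labels state no pairing, and the numbers were not taken to pair the animals. Members that changed sign numbered 13 with Ctrb1 as a covariate, 6 with liver genes as a covariate, 10 with the block, 3 to 18 when a library was left out, 7 without both libraries high in liver genes and at most 1 under other scalings, filters or tools; none was past the threshold in either fit. 2610035D17Rik passed with no filter (−1.76), with DESeq2 (−1.76) and with the block (−1.77). The planned correlations of the members with Ctrb1 were not run because Ctrb1 split the libraries into 4 low and 3 high, and their alternative with Cpa1 as the reference was not run either. Precision was limited by the 3 cKO libraries, with the largest SEs for Chac1 (0.669), Pdia2 (0.597) and Trib3 (0.527), all under 10 CPM, and Derl3 (0.410), which is not.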

Other observations

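Some genes of the wider pathway list spread further over the libraries than most members did. The 3 given here were chosen after their values were seen, and each was highest in WT replicate 4 or cKO replicate 1. Fkbp11, a prolyl isomerase of secretory cells, had 91.8, 78.0, 70.2 and 183 CPM in WT and 174, 117 and 79.1 CPM in cKO. Sec11c, a catalytic subunit of the signal peptidase, had 32.9, 24.8, 24.7 and 41.7 CPM in WT and 47.8, 36.9 and 29.3 CPM in cKO, while its paralog Sec11a spanned only 86.5 to 104 CPM. Nupr1, a stress-induced chromatin protein abundant in acinar cells, had 189, 217, 210 and 298 CPM in WT and 287, 232 and 155 CPM in cKO. Among macrophage markers, C1qa had 75.7, 71.2, 79.3 and 144 CPM in WT and 127, 97.7 and 74.2 CPM in cKO, with the same 3 highest libraries as Ctrb1, whereas Mrc1 did not share that order (39.9 to 61.6 CPM over all libraries).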
